A study of Mus musculus with 4 samples.

Results

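Eukaryotic translation initiation factors were followed in K7M2 cells, a mouse osteosarcoma line that metastasises readily. The genes were those whose platform annotation gives a single symbol beginning with Eif and a digit, without the kinase genes Eif2ak2 and Eif2ak3, each represented by its brightest probe set over the 4 arrays. This gave 45 of 18193 named genes, measured by 127 of the 34945 single-gene probe sets outside the array's controls. Of the 45 genes, 42 lay above the median level of all genes (5.04 on the log2 scale). The 3 others were Eif2s3y, Eif4a3 and Eif5a2. A further 6 probe sets name an initiation factor gene together with another gene and were not used, so Eif4ebp3, Eif3j1 and Eif3j2 were not analysed here. Other listed genes were also absent from the 45, among them Eif1, the eIF2 subunit gene Eif2s1 and the scaffold gene Eif4g1.

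The 4 one-colour arrays compared K7M2 cells over-expressing GFP alone (1 array) with K7M2 cells over-expressing ezrinT567A-GFP (3 arrays, replicates 1, 2 and 3). All cells were grown in the same medium with 10% serum, and GFP was carried by both groups. Ezrin links membrane proteins to cortical actin, and in the ezrinT567A form a regulatory C-terminal threonine is replaced with alanine, which cannot be phosphorylated. The labels give no promoter for the constructs and do not say if a replicate is its own culture or clone, so a p-value here reflects only how these arrays scatter. Values are log2 expression per probe set, and every difference below is the ezrinT567A-GFP mean minus the GFP array on that scale. With 1 GFP array, its variance was taken to equal that of the replicates. Differences from GFP all share that array, so an SD over the replicates holds none of its scatter. The smallest p that permuting 4 arrays exactly could give is 0.25.

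Initiation factors bring the ribosome to the start codon of an mRNA. eIF4E binds the cap, eIF4G bridges it to the helicase eIF4A, and eIF3 holds the small subunit, to which eIF2 delivers the initiator tRNA as a complex with GTP. Supply is controlled at eIF2, whose phosphorylation by stress kinases blocks its exchange factor eIF2B, and at eIF4E, which the 4E-binding proteins sequester until mTOR phosphorylates them. Most of these controls act on proteins, which the arrays did not measure.

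The array medians lay between 3.85 and 3.89. The mean of the hybridization spike-ins was lowest in GFP (9.32) and highest in replicate 2 (11.1), and that of the 3 probe sets for 18S rRNA ran from 7.65 in replicate 1 to 11.3 in replicate 2, with GFP at 9.09. The 3′ minus 5′ signal of beta-actin was 0.23 in GFP and 0.31 to 0.43 in the other arrays. Of 6 measured osteoblast-line genes 4 were above the median level of all genes, among them Col1a1 and Col1a2, while the bone matrix gene Ibsp (2.74 to 2.88) and Alpl (3.36 to 4.02) were dim. Of 13 markers of other cell types 3 were above that level, and the leukocyte gene Ptprc was near the floor of the arrays (2.10 to 2.22). The list averaged 3.95 in GFP against 3.36 to 3.59. Its epithelial genes Krt14 (-2.80), Krt5 (-2.05), Cdh1 (-1.28) and Epcam (-0.43) were each below GFP in all 3 arrays by their brightest probe sets. Other probe sets gave 0.08 for Krt14 and -0.08 for Epcam. In these bulk samples fewer cells of a type and less RNA per cell cannot be told apart. Whether the spike-in, RNA quality or marker differences had a part in the results below was not tested. The brightest Ezr probe set differed by 0.01 (SE 0.12) and another by 0.33, and the labels do not say if they match the transgene.

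As a whole the initiation factors stayed close to the bulk of the transcriptome. Their median difference was 0.03, as was that of all genes, with array medians of 0.04 ± 0.03 (SD, n = 3). Of the 45 genes 17 were above GFP in all 3 ezrinT567A-GFP arrays (37.8%) and 10 below it in all 3 (22.2%), beside 32.5% and 25.6% of all genes. Among all genes above the median level those shares were 37% and 29.6%. With limma 0 of the 45 genes had an adjusted p under 0.05, as did 0% of all genes. At an unadjusted p under 0.05 there were 7 of the 45 (15.6%) against a background of 14%, or 20% of the brighter genes. On the lower side were 3 of them, Eif2s3x, Eif4e and Eif4e2 (6.5% of all genes), and on the higher side 4, Eif1a, Eif2b2, Eif3m and Eif6 (7.46% of all genes). The share of initiation factors that differed was therefore near the background, and the smallest adjusted p among them was 0.204. Only Eif2s3x, of these 45, was at least 2-fold apart, as were 1.68% of all genes, or 0.704% on the lower side.

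**Figure D1:**
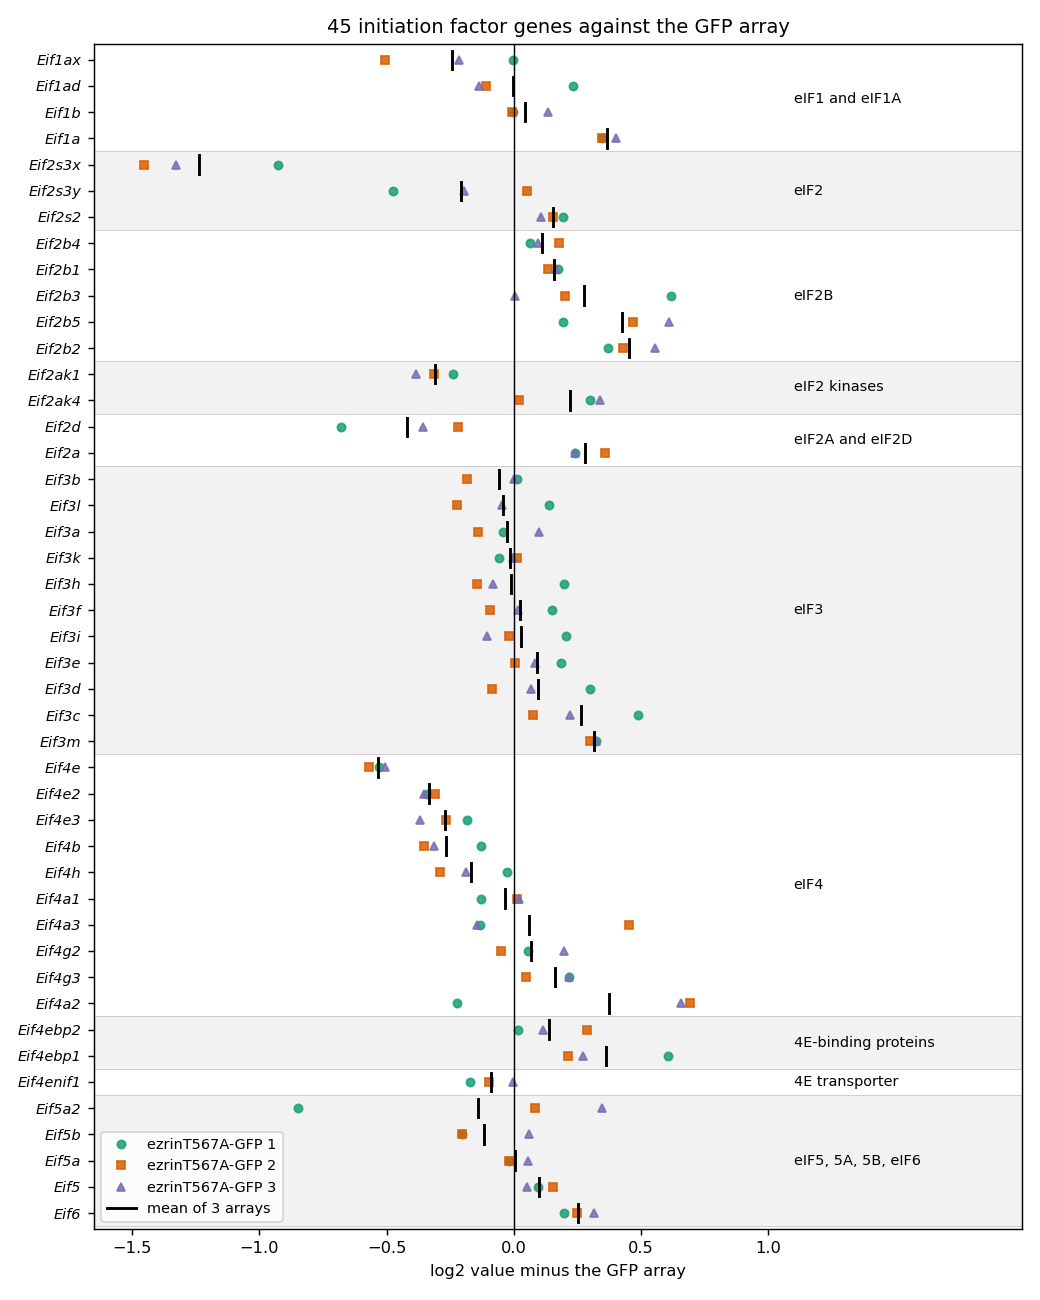
Log2 value of each ezrinT567A-GFP array minus the GFP array for the 45 initiation factor genes, grouped by role; symbols are the 3 arrays and the vertical bar is their mean. The 5 eIF2B genes lie at or above 0, the 3 genes of the eIF4E family lie below it, most of the 11 eIF3 genes straddle it, and Eif2s3x lies far to the left at -1.24.

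The figure of level against difference places these genes among all others.

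**Figure D2:**
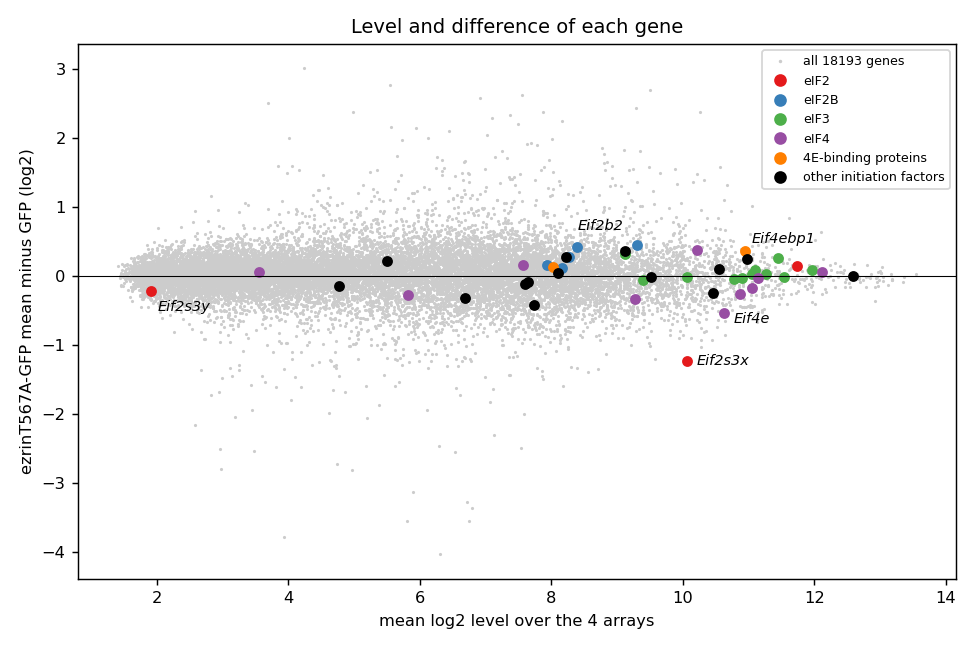
Mean log2 level over the 4 arrays (x axis) against the ezrinT567A-GFP mean minus GFP (y axis, log2) for all 18193 genes in grey and the initiation factors in colour. Most initiation factors are bright and lie close to 0, Eif2s3x stands below its group at -1.24, and Eif2s3y sits at the dim end.

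The largest difference belonged to eIF2, the factor that carries the initiator tRNA. Eif2s3x, the X-linked gene of its GTP-binding gamma subunit, was 10.99 in GFP and 10.07, 9.54 and 9.67 in replicates 1, 2 and 3. All 3 ezrinT567A-GFP arrays lay well below GFP, with a mean of 9.76 ± 0.27 (SD, n = 3). The difference was -1.24 (SE 0.23), which is 2.36-fold, with limma adjusted p = 0.231. The other probe sets for this gene went the same way, at -1.25 and -1.70, and all 3 are above the median level. The brightest carries the suffix by which the platform marks probes that may match other transcripts, and the probe set at -1.70 does not. Only 74 of the 18193 genes had a difference at least as far below 0.

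Of the 4 eIF2 genes listed 3 were measured, without Eif2s1, and Eif2s2 is the other one above background. Eif2s2, the beta subunit gene, was 11.62 in GFP and 11.82, 11.78 and 11.73 in the ezrinT567A-GFP arrays, all slightly above GFP, a difference of 0.15 (SE 0.08, adjusted p by limma = 0.456). Its 6 probe sets differed by 0.02 to 0.27, none of them below 0. Eif2s3y, the Y-linked copy of the gamma subunit gene, was 2.06 in GFP and 1.58, 2.11 and 1.86 in the other arrays. These values lie below the lower quartile of the arrays (2.55 to 2.62), at background, so its difference of -0.21 (SE 0.22) says nothing of expression. Because the eIF2 group holds 3 measured genes, its median of -0.21 is that of Eif2s3y. Set against each other within each array, the change of Eif2s2 exceeded that of Eif2s3x by 1.12, 1.61 and 1.44 in replicates 1, 2 and 3. The mean was 1.39 ± 0.25 (SD, n = 3, with the same GFP array in each).

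Other X-linked genes, singled out after their values were seen, were lower beside Eif2s3x. The brightest probe set for Xist, the RNA that coats the inactive X chromosome, was 9.33 in GFP and 7.30, 4.22 and 4.35 in replicates 1, 2 and 3. The brightest probe set for Kdm6a, an X-linked histone demethylase known to escape X inactivation, as does Eif2s3x, was 7.11 in GFP and 6.71, 5.56 and 6.08. Another Kdm6a probe set differed by -1.49, and the dim ones by 0.33 and -0.30. Ddx3x, the X-linked helicase that helps ribosomes scan structured leaders, was 11.01 in GFP and 10.60, 10.06 and 10.46, a difference of -0.64 (SE 0.24, adjusted p by limma = 0.359). By the brightest probe set, GFP was the highest array for each of these 3 genes, and replicate 1 was the next. None of the 3 Xist probe sets passed limma's test over all single-gene probe sets (adjusted p 0.272 to 0.423). The part of any of this in the Eif2s3x result was not tested.

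The typical X-linked gene lay nearer to GFP than these. On the X chromosome, the 246 genes above the median level had a median difference of -0.14, and 49.6% of them were below GFP in all 3 arrays, against 29.6% of all such genes. Only 8 of the 246 were at least as low as Eif2s3x, itself counted. Of the 3 nearest genes of that brightness on each side, Pola1 was -0.71 (SE 0.13), Zfx -0.45 (SE 0.25), Apoo -0.43 (SE 0.17) and Pdk3 0.16 (SE 0.12), while Maged1 (-0.12) and Las1l (-0.0062) lay close to 0.

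**Figure D3:**
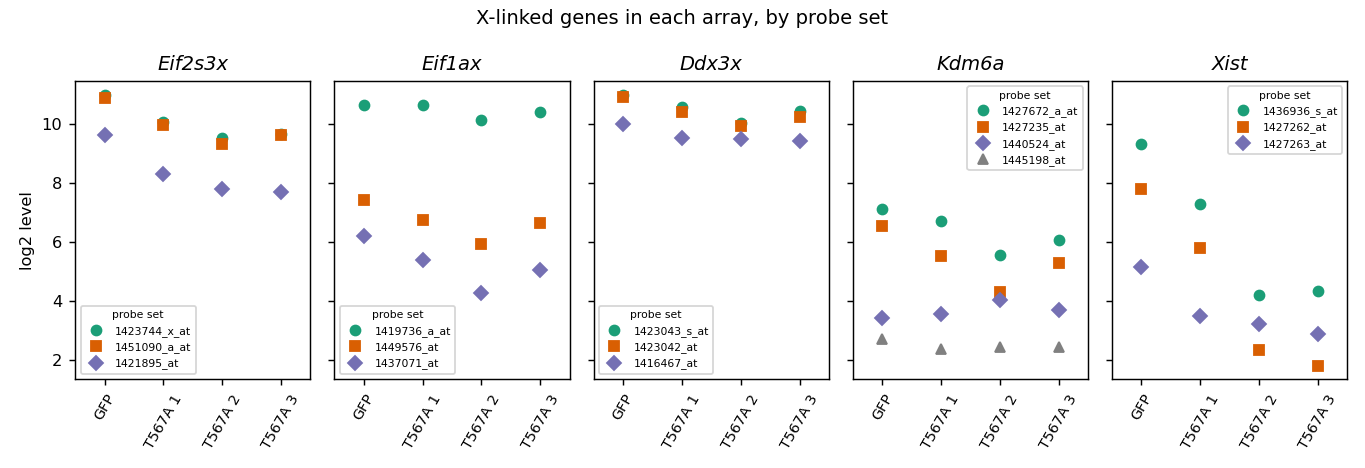
Log2 level in each array (x axis: GFP and ezrinT567A-GFP replicates 1 to 3) for every probe set of Eif2s3x, Eif1ax, Ddx3x, Kdm6a and Xist, 1 symbol per probe set. The 3 Eif2s3x probe sets are highest in GFP, the brightest Eif1ax probe set differs by -0.24 where its dimmer ones differ by -0.99 and -1.29, and the brightest Xist probe set goes from 9.33 in GFP to 4.22 in replicate 2.

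The genes of eIF1 and eIF1A, small factors that keep the scanning ribosome open until it meets a start codon, gave mixed differences. Eif1a was 8.85 in GFP and 9.20, 9.20 and 9.26 in replicates 1, 2 and 3. All 3 arrays lay above GFP, a difference of 0.37 (SE 0.10, adjusted p by limma = 0.282), with 0.26 by its other probe set. Eif1ax, the X-linked gene for eIF1A, was 10.65 in GFP and 10.64, 10.14 and 10.43, a difference of -0.24 (SE 0.22, adjusted p by limma = 0.693). Replicate 1 lay level with GFP and replicate 2 lowest, and without replicate 2 the difference was -0.11. Its 2 dimmer probe sets gave -0.99 and -1.29, with GFP highest and replicate 2 lowest in each. Eif1a and Eif1ax encode near-identical proteins, and a probe set of Eif1a carries the suffix for probes shared between transcripts, so signal of these genes may not be fully separate. Eif1b was 8.07 in GFP and 8.07, 8.06 and 8.21 (difference 0.04, SE 0.12), within the spread of the arrays.

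eIF2B, the exchange factor that reloads eIF2 with GTP, had all 5 of its genes above GFP in all 3 ezrinT567A-GFP arrays, where 32.5% of all genes were. Of all genes above the median level, as all 5 are, 37% were. The median difference of the group was 0.28, beside 0.03 for all genes, and it was 0.15 without replicate 1. Eif2b2, the beta subunit gene, was 8.97 in GFP and 9.34, 9.40 and 9.52 in replicates 1, 2 and 3, a difference of 0.45 (SE 0.12, adjusted p by limma = 0.281). Its other probe sets gave 0.38 and 0.08. Eif2b5, which encodes the catalytic epsilon subunit, was 8.07 in GFP and 8.26, 8.54 and 8.68, a difference of 0.42 (SE 0.20, adjusted p by limma = 0.434). Eif2b1, the alpha subunit gene, was 7.82 in GFP and 7.99, 7.96 and 7.99, a smaller difference of 0.16 (SE 0.11, adjusted p by limma = 0.579). For these 3 genes no ezrinT567A-GFP array reached down to GFP. Eif2b3 and Eif2b4 differed by 0.28 (SE 0.27) and 0.11 (SE 0.11), and replicate 3 lay only 0.0045 above GFP for Eif2b3. Of the 5 genes, 1 had an unadjusted p under 0.05 by limma and 0 passed the adjusted test, as did 14% and 0% of all genes. Among all genes above the median level the unadjusted share was 20%.

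The eIF2 kinases that the rule kept pointed opposite ways. Eif2ak1, the heme-regulated kinase, was 6.92 in GFP and 6.68, 6.60 and 6.53 in replicates 1, 2 and 3, all below GFP, a difference of -0.31 (SE 0.13, adjusted p by limma = 0.387). Eif2ak4, the kinase GCN2 that senses uncharged tRNA, was 5.34 in GFP and 5.64, 5.36 and 5.68, a difference of 0.22 (SE 0.18, adjusted p by limma = 0.656), with replicate 2 barely above GFP. The alternative factors eIF2A and eIF2D, which can bring tRNA to the ribosome without eIF2, also split. Eif2a was 8.01 in GFP and 8.25, 8.37 and 8.25, a difference of 0.28 (SE 0.12, adjusted p by limma = 0.392), but a dimmer Eif2a probe set, also above the median level, gave -0.64. Eif2d was 8.05 in GFP and 7.37, 7.83 and 7.70, a difference of -0.42 (SE 0.22, adjusted p by limma = 0.478), all 3 arrays below GFP and replicate 1 lowest.

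eIF3, the largest initiation factor complex and the platform on which the small ribosomal subunit is loaded, was the flattest of the large groups. Its 11 measured genes had a median difference of 0.03 and ranged from -0.06 (Eif3b) to 0.32 (Eif3m). For 8 of them GFP lay within the range of the ezrinT567A-GFP arrays or level with an array. The count above GFP in all 3 arrays was 3 (27.3%) and the count below it in all 3 was 0. Of all genes above the median level, as all 11 are, 37% and 29.6% were. The array medians were 0.19, -0.09 and 0.02 in replicates 1, 2 and 3, so replicate 1 stood highest, and without it the group median was -0.02.

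Eif3m, a PCI-domain subunit gene, was 8.88 in GFP and 9.20, 9.18 and 9.20 in replicates 1, 2 and 3. These 3 arrays were almost level with each other and above GFP, a difference of 0.32 (SE 0.09, adjusted p by limma = 0.302). Its other probe set lay near the floor of the arrays. Eif3c, a core subunit gene, was 11.26 in GFP and 11.75, 11.33 and 11.48, a difference of 0.26 (SE 0.18, adjusted p by limma = 0.594), or 0.15 without replicate 1, and its 4 probe sets differed by 0.26 to 0.43. Eif3e was 11.89 in GFP and 12.08, 11.90 and 11.98, with replicate 2 barely above GFP. The difference of 0.09 (SE 0.10, adjusted p by limma = 0.746) was smaller than its SE. The 8 others, Eif3a, Eif3b, Eif3d, Eif3f, Eif3h, Eif3i, Eif3k and Eif3l, differed by -0.06 to 0.09, with adjusted p between 0.859 and 0.987.

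The eIF4 group recognises the cap and unwinds the leader. Its 10 measured genes had a median difference of -0.10, with 5 below GFP in all 3 arrays (25.6% of all genes were) and 1 above (32.5%). Among all genes above the median level, as 9 of the 10 are, those shares were 29.6% and 37%. The genes of the cap-binding family, grouped here after their values were seen, made up 3 of the 5. Eif4e, the cap-binding protein itself, was 11.02 in GFP and 10.49, 10.45 and 10.52 in replicates 1, 2 and 3. The 3 arrays lay close together (SD 0.03) and all below GFP, a difference of -0.53 (SE 0.08), or 1.45-fold, with limma adjusted p = 0.204. Its other probe sets were lower by less, at -0.25, -0.24 and -0.20. The probe set at -0.20 (SE 0.31) was dim, at 4.85 in GFP, and its replicate 3 lay above GFP.

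Eif4e2 encodes 4EHP, a cap-binding homologue that does not bind eIF4G in the usual way and acts mostly as a repressor. It was 9.52 in GFP and 9.18, 9.21 and 9.17 in replicates 1, 2 and 3, a difference of -0.34 (SE 0.09, adjusted p = 0.287 by limma). Another probe set of like brightness gave -0.38, whereas the dimmer ones, at 5.74, 5.56 and 4.42 in GFP, gave 0.17, -0.15 and 0.10. Eif4e3, a less studied member of the family, singled out after its values were seen, was 6.02 in GFP and 5.84, 5.76 and 5.66, a difference of -0.27 (SE 0.14, adjusted p by limma = 0.462), and its dimmer probe set gave -0.08 with replicate 1 above GFP. By their brightest probe sets, for these 3 genes every ezrinT567A-GFP array was below GFP.

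Among the other eIF4 genes, by their brightest probe sets, Eif4b and Eif4h were below GFP in all 3 arrays and Eif4g3 above it. Eif4b, a cofactor of the helicase, was 11.06 in GFP and 10.93, 10.71 and 10.75, a difference of -0.27 (SE 0.12, adjusted p by limma = 0.430), with replicate 1 nearest to GFP. The other Eif4b probe sets gave -0.03 and -0.20, each with replicate 1 above GFP. The related cofactor gene Eif4h differed by -0.17 (SE 0.13). Its probe set at 10.13 in GFP gave 0.16 and was above GFP in all 3 arrays. Its remaining probe sets above the median level gave -0.016 and -0.030, with arrays on both sides of GFP or level with it. The helicase genes were uneven. Eif4a1 differed by -0.03 (SE 0.10), but its other probe sets, both bright, gave -0.45 and -0.18 and were below GFP in all 3 arrays. Eif4a2 was 9.93 in GFP and 9.71, 10.62 and 10.59, so that replicate 1 lay below GFP and replicates 2 and 3 above it, a difference of 0.38 (SE 0.42). Chromosome 16, on which Eif4a2 lies, had median differences of -0.10, 0.26 and 0.33 in the same arrays over its 286 genes above the median level. Eif4a3, known best from the exon junction complex, lay at 3.37 to 3.97, where signal above background is not shown. The scaffold genes Eif4g2 and Eif4g3 differed by 0.07 (SE 0.12) and 0.16 (SE 0.13), and Eif4g1 was not measured.

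The start regions of Eif4e and Eif4e2 are shown because these cap-binding genes were lower together while their sequences differ in the E-box CACGTG, the palindromic site bound by MYC and related factors. Each is the 250 bases before a RefSeq start (GRCm38.p6, plus strand, 5′ to 3′), with CACGTG in capitals. With 2 starts listed for Eif4e and 3 for Eif4e2, the plus-strand start with the most copies of CACGTG was taken for each gene. The Eif4e window is chr3:138527018-138527267 and the Eif4e2 window chr1:87213661-87213910.
Eif4e: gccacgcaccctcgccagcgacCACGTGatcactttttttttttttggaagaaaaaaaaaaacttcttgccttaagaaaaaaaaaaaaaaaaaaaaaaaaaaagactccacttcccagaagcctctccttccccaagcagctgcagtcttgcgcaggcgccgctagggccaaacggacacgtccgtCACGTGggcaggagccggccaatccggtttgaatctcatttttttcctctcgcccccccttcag
Eif4e2: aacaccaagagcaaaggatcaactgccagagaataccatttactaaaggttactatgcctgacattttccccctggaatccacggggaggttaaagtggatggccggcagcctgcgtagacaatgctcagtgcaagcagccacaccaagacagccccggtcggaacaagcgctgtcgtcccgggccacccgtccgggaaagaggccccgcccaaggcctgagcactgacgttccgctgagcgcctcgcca

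The Eif4e window held 2 copies of CACGTG, starting 228 and 64 bases before the start, and the Eif4e2 window 0. A window with at least 2 copies was found for 0.429% of the 32851 RefSeq starts in the table, and 1 or more for 6.02%. These shares are over single starts, whereas the windows shown were picked for their copies, so the shares do not measure how rare such a window is. The motif reads the same on both strands and was the only motif searched, so no overlap with another arises. Of the 45 initiation factor genes 36 matched the table by gene symbol. For 8 of these at least 1 listed start had the motif, against 6.86% of all genes in the table. They were Eif1b, Eif3f, Eif3k, Eif4a1, Eif4e, Eif4h, Eif5a and Eif5a2. Their differences ran from -0.53 (Eif4e itself) to 0.04, with 3 above 0 and 5 below, the dim Eif5a2 among the latter. Of all 18193 genes 10201 were above 0 and 7984 below. A link between the motif and the differences was not tested. The 36 matched genes had 49 listed starts, and the 27025 genes of the table had 32851. The table was not limited to measured or bright genes, so its share is not one of like genes. The match is a description of letters and not of a bound site.

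The 4E-binding proteins, which compete with eIF4G for eIF4E, lay on the opposite side of GFP. Eif4ebp1 was 10.68 in GFP and 11.29, 10.89 and 10.95 in replicates 1, 2 and 3. All 3 arrays were above GFP and replicate 1 stood highest, a difference of 0.36 (SE 0.18, adjusted p by limma = 0.467), or 0.24 without replicate 1. Its other probe sets gave 0.38 and 0.52, so all 3 pointed up. Eif4ebp2 was 7.92 in GFP and 7.94, 8.21 and 8.04, all above GFP, with replicate 1 barely so. The difference of 0.14 (SE 0.15, adjusted p by limma = 0.754) was smaller than its SE, and it was 0.064 without replicate 2. The 5 Eif4ebp2 probe sets ran from -0.05 to 0.42.

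Within each array the change of Eif4ebp1 exceeded that of Eif4e by 1.13, 0.78 and 0.78 in replicates 1, 2 and 3. The mean was 0.90 ± 0.20 on the log2 scale (SD, n = 3, with the same GFP array in each). The change of Eif4ebp2 exceeded that of Eif4e by 0.54, 0.86 and 0.62. These are changes in mRNA signal from GFP and not the amounts of the proteins relative to each other. Eif4enif1, which encodes the 4E transporter that carries eIF4E into the nucleus and to P-bodies, was 7.71 in GFP and 7.54, 7.62 and 7.71, a difference of -0.09 (SE 0.13, adjusted p by limma = 0.811).

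**Figure D4:**
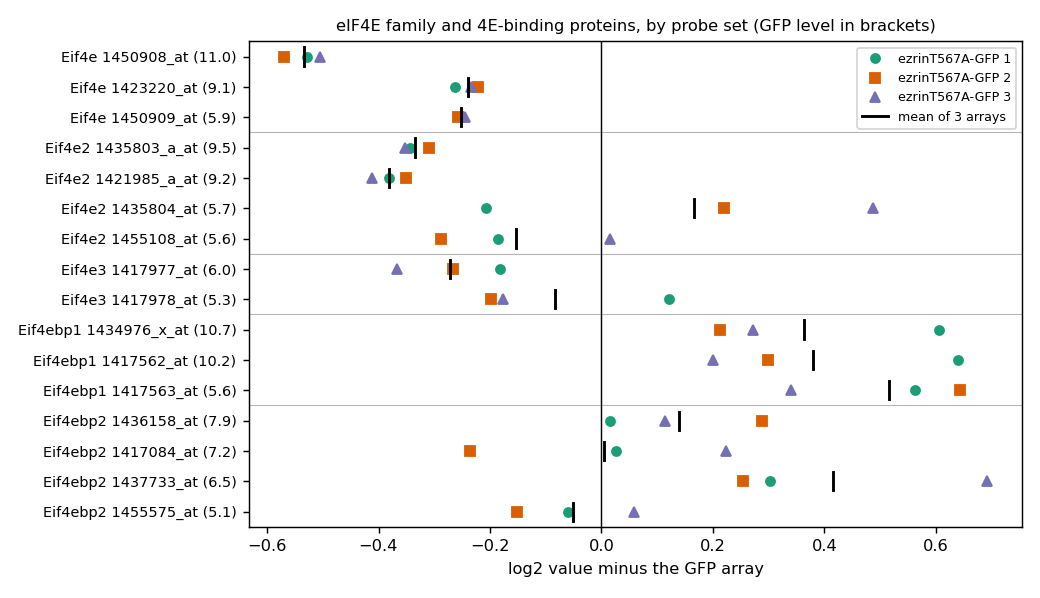
Log2 value of each ezrinT567A-GFP array minus GFP for every probe set above the median level of Eif4e, Eif4e2, Eif4e3, Eif4ebp1 and Eif4ebp2; symbols are the 3 arrays, the vertical bar is their mean and the GFP level is in brackets. All 3 Eif4e probe sets lie left of 0 and all 3 Eif4ebp1 probe sets right of it, while probe sets of Eif4e2 and Eif4ebp2 lie on both sides.

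Several of these genes lie on chromosomes whose genes differed together, a comparison made after the values were seen and over genes above the median level. On chromosome 1, which carries Eif4e2, Eif2d and Eif5b, 510 genes had a median of -0.34 and 72.7% were below GFP in all 3 arrays. The difference of Eif4e2 (-0.34) was thus that of the median gene of its chromosome. On chromosome 8, which carries Eif4ebp1, 516 genes had a median of 0.24 and 66.7% were above GFP in all 3 arrays. Of the 6 nearest such genes around Eif4ebp1 all were above 0, among them Tti2 (0.54, SE 0.12), Brf2 (0.42, SE 0.14) and Adgra2 (0.37, SE 0.11). Eif1a lies on chromosome 18, where the median was 0.21 over 222 genes. Of the eIF2B genes, Eif2b5 lies on chromosome 16, with medians of -0.10, 0.26 and 0.33 in replicates 1, 2 and 3. Eif2b3 lies on chromosome 4, with medians of 0.22, -0.0080 and 0.014 in the same arrays. Eif2b2 lies on chromosome 12 (median difference 0.11), and Eif2b1 and Eif2b4 on chromosome 5 (-0.03). On chromosome 15, which carries Eif3d, Eif3e, Eif3h, Eif3l and Eif4b, the array medians were 0.17, -0.04 and 0.01 in replicates 1, 2 and 3. On chromosome 2, which carries Eif2ak4, Eif2s2, Eif3m and Eif6, the median was 0.11, and 48.0% of 743 genes were above GFP in all 3 arrays. Chromosome 3, which carries Eif4e, had a median of -0.0054 over 460 genes. The genes nearest to Eif4e gave -0.29 (Metap1), -0.07 (Adh5), -0.04 (Tspan5), -0.19 (Rap1gds1) and 0.16 (Adh7), with Pdlim5 at 1.09, so Eif4e was lower than each of these 6. The part of chromosome-wide differences in the values of single genes was not tested.

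Of the 5 genes for eIF5, eIF5A, eIF5B and eIF6, 2 were above GFP in all 3 arrays and 0 below it in all 3. Of all genes 32.5% and 25.6% were, and of those above the median level 37% and 29.6%. The median difference of the 5 genes was 0.0051. Eif6, which keeps the large subunit from joining too early, was 10.79 in GFP and 10.99, 11.04 and 11.11 in replicates 1, 2 and 3, all above GFP, a difference of 0.25 (SE 0.09, adjusted p by limma = 0.341). A dimmer Eif6 probe set gave -0.16. Eif5, the GTPase-activating factor for eIF2, was 10.48 in GFP and 10.57, 10.63 and 10.53, a difference of 0.10 (SE 0.09, adjusted p by limma = 0.692), although its 5 probe sets ran from -0.25 to 0.13. Eif5b, the GTPase of subunit joining, was 7.69 in GFP and 7.49, 7.48 and 7.75, a difference of -0.12 (SE 0.16, adjusted p by limma = 0.811). Eif5a, the hypusine-bearing factor that also serves elongation, differed by 0.0051 (SE 0.07). Its other probe set, also above the median level, gave -0.17 and was below GFP in all 3 arrays. The homologue Eif5a2 was dim, at 4.88 in GFP and 4.03, 4.96 and 5.22, and its SD of 0.63 was the largest of the 45 genes.

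Other genes of the pathway were taken from a list of 30, of which 28 were measured. Their median difference was 0.06, with 12 above GFP in all 3 arrays (42.9%) and 7 below it in all 3 (25%), beside 37% and 29.6% of all genes above the median level, as all 28 are. Of the 28, 0 passed limma's adjusted test while 4 had an unadjusted p under 0.05 (14.3%, against 14% of all genes and 20% of those above the median level). The 4 were Mcts1, Ppp1r15b, Dhps and Dhx29. Mcts1, an X-linked gene whose product works with DENR in reinitiation and recycling, was 9.26 in GFP and 8.67, 8.88 and 8.89, a difference of -0.45 (SE 0.14). Ppp1r15b, which directs a phosphatase to eIF2 and lies on chromosome 1, differed by -0.48 (SE 0.17). Dhps, which starts the hypusine modification of eIF5A and lies on chromosome 8, differed by 0.60 (SE 0.21). Dhx29, a helicase that helps the ribosome through structured leaders, differed by 0.50 (SE 0.18). By their brightest probe sets the elongation factor genes Eef1a1 (0.04) and Eef2 (0.06) and the poly(A)-binding Pabpc1 (-0.0086) differed by less than their SEs. The elongation factor gene Eef1b2 differed by -0.16 (SE 0.07), below GFP in all 3 arrays. Over all probe sets of a gene, Dhps ran from 0.08 to 0.60 and Dhx29 from 0.12 to 0.50. Eef2 ran from -0.31 to 0.06 and Pabpc1 from -0.35 to -0.0086, so the near-zero values of these 2 genes depend on the probe set.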

How the data were processed

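RNA was read on 4 one-colour arrays. The authors deposited log2 values for each probe set, made with RMA per the submitters' processing notes; the program that ran it is not given in the sources used. RMA makes array distributions nearly equal, so shifts in RNA content per cell are lost. Of 45101 probe sets, 34958 had 1 gene symbol in the platform annotation, 932 several and 9211 none listed; the 64 controls were left out. Groups came from the over-expression label. One probe set stood for a gene, that of the highest mean log2, with no filter on dim genes. The fit over all 18193 genes used limma 3.58.1 (R 4.3.3; eBayes with a mean trend, 2 residual and 2.23 prior degrees of freedom), two-sided, adjusted after Benjamini and Hochberg at 0.05. SE is the moderated standard error. Chromosomes and neighbours came from a RefSeq table of GRCm38.p6 (18032 genes matched). Scripts were tested on simulated data. Alternatives were other normalizations, probe set choices, a dim-gene filter, other priors and leaving out each replicate.

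The genes, lists and tests were chosen with earlier results of these data known. Genes given array by array were Eif4e, the eIF2 subunits, the 4E-binding proteins and, in each other role group, the 3 members with the largest absolute moderated t; the 4 of smallest p were named from the pathway list. Other genes named were chosen after their values were seen.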

Additional observations from a re-analysis of the deposited data

How the results depend on the processing

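With limma, 0 of the initiation factor genes passed under each of the 10 alternatives, with a smallest adjusted p between 0.0851 (quantile normalization) and 0.558 (without replicate 3). Over all genes the calls went from 0 to 34 after quantile normalization, 30 after median centring, 9 with a robust prior, 6 when probe sets were averaged and 3 without dim genes, and stayed at 0 under the other 5 alternatives. Of 245 values of 25 named genes under the alternatives, 239 kept their direction. The exceptions were Eif2a (-0.16) and Eif5 (-0.011) when probe sets were averaged, Eif4e2 (0.17), Eif6 (-0.16) and Eif5 (-0.16) with plain _at probe sets alone, which left out the brightest probe set of these 3 genes, and Eif1b (-0.0043) without replicate 3, which ran to 0.066 without replicate 2. The eIF2B median was 0.30 after quantile normalization, 0.26 after median centring and 0.20 with the mean of probe sets. The eIF4 median was -0.12 after centring, -0.063 with the mean of probe sets, -0.030 with plain _at probe sets and -0.17 without dim genes, and the eIF2 median was -0.54 without dim genes, where Eif2s3y drops out. With plain _at probe sets, which covered 36 of the genes, 9 rather than 17 were above GFP in every array and the median of all initiation factors was -0.0090. Leaving out 1 replicate at a time gave medians of 0.017 to 0.058 for all initiation factors, 0.15 to 0.33 for eIF2B, -0.12 to -0.11 for eIF4 and -0.34 to -0.07 for eIF2. No paired analysis was possible because there is only 1 GFP array, whose label carries no replicate number. The number of arrays limits the precision throughout.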
